A study of Arabidopsis thaliana with 4 samples.

Results

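The 10 genes described here are ethylene response factors (ERFs) of Arabidopsis thaliana: ERF1 (AT3G23240), ERF2 (AT5G47220), ERF4 (AT3G15210), ERF5 (AT5G47230), ERF6 (AT4G17490), ERF11 (AT1G28370), ERF13 (AT2G44840), ERF104 (AT5G61600), ERF105 (AT5G51190) and ORA59 (AT1G06160). The rule takes them by locus from a list, which was drawn up with earlier results of these data known, so their shared direction is not independent evidence. Each had 1 probe among the 25665 loci on the array. All 10 were among the 19246 genes tested, having been well above background in at least 1 of the genotypes on 2 or more arrays. Transcripts of shoot apices were compared between 2 genotypes, the ron3 mutant and its Ler control, both grown in vitro under conditions labelled LD to stage 1.02. Neither the ron3 allele nor the number of plants behind an RNA sample is given in the sources used here, and no treatment is labelled for either genotype. On each of 4 arrays, a to d, ron3 RNA carried one dye and Ler RNA the other, with ron3 in Cy5 on arrays a and c and in Cy3 on arrays b and d.

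ERFs bind the GCC box, a short promoter element of many defence genes, through the AP2/ERF domain that defines the family. Group IX holds mostly activators, among them the factors through which ethylene and jasmonate signals meet. Group VIII includes, but is not limited to, repressors with an EAR motif, a short stretch that recruits co-repressors. In growing leaves several of these factors are known from osmotic stress, where ERF5 and ERF6 restrain cell division and expansion. ERF6 and ERF104 are substrates of the mitogen-activated protein kinases MPK3 and MPK6.

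RON3 itself (listed as SIC, AT4G24500, and equated with SICKLE from general knowledge) was lower in ron3, with log2 ratios of −2.31, −2.27, −2.21 and −2.41 on arrays a to d (limma, adjusted p = 0.000148). Between 54.2% and 59.5% of gene probes were well above background per array and genotype, and array d was the dimmest in Cy5 (median spot signal 148, where arrays a to c had 194.5 to 222). Of the shoot apex markers examined, 7 of 11 were well above background in both genotypes on every array, among them STM and KNAT1, whereas CLV3 and WUS, which mark small groups of meristem cells, were not on any array in either genotype. All 4 arrays lay on 1 slide. Whether any of the arrays were hybridised with the same RNA extract is not labelled, so the p-values measure the spread between these arrays, part of which may be technical.

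The question here is whether transcripts of these factors differ between the ron3 and Ler apices. All 10 rose in ron3 (limma, adjusted p below 0.05), and their median log2 ratio was 1.93 against 0.02 for all genes tested. ERF1 and ERF6 entered the fit only through ron3, the genotype in which they were higher, which favours a rise. Where signals had to be well above background in both genotypes on all arrays, 8 of 8 rose, and their median was also 1.93. The 10 rises are read against a background in which 37.0% of all genes tested rose and 32.8% fell, 69.8% changing in either direction. Of the members, 7 rose at least 2-fold and 5 at least 4-fold, where 6.02% and 1.85% of all genes tested did so. The ratio was above 0 on all 4 arrays for 10 of 10 members, as it was for 38.8% of genes. For 8 of 10 members the lowest ron3 signal lay above the highest Ler signal, as for 28.7% of genes, and the exceptions were ORA59 and ERF6. Because whole apices were measured, more cells of a type and more RNA per cell cannot be told apart.

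**Figure D1:**
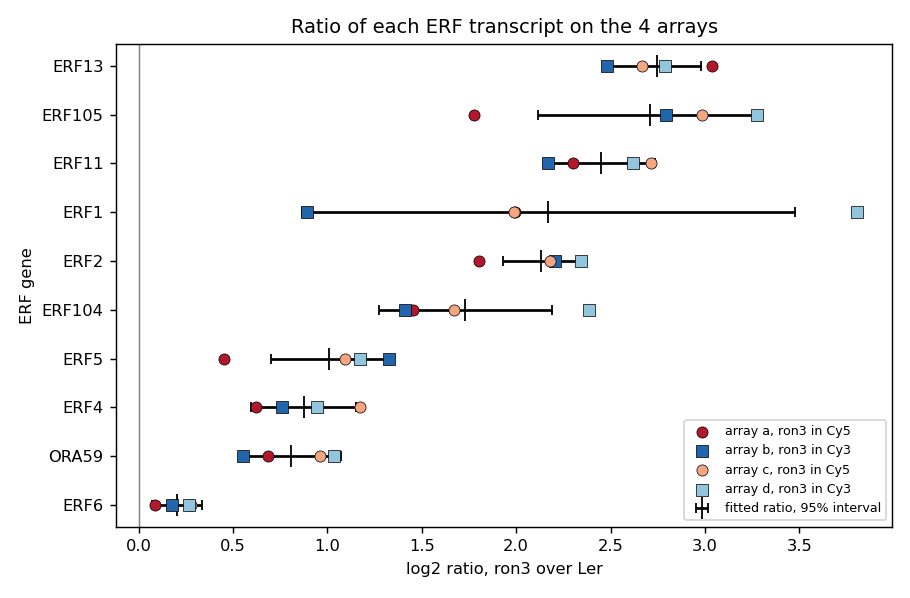
Log2 ratio of ron3 over Ler (x axis) for each ERF gene (y axis), with circles for arrays with ron3 in Cy5, squares for arrays with ron3 in Cy3, and the fitted ratio with its 95% interval in black. All points lie above 0; ERF1 spreads most, from 0.89 to 3.81, and ERF6 lies closest to 0.

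The group VIII repressors ERF4 and ERF11 rose by different amounts. ERF11, a repressor also known for dampening ethylene synthesis genes, had log2 ratios of 2.30, 2.17, 2.71 and 2.62 on arrays a to d. All of its ron3 signals, at 9.87 to 10.63 on the normalised log2 scale, lay above its Ler signals of 7.71 to 8.19. The fitted rise was 5.46-fold (95% interval 4.47 to 6.67; limma, adjusted p = 0.000278). ERF4, a repressor of jasmonate and ethylene responsive defensin genes, stood at 0.62, 0.76, 1.17 and 0.94 on the same arrays. Its signals in ron3 also lay above those in Ler on every array, by less, and the fitted rise was 1.83-fold (1.51 to 2.22; limma, adjusted p = 0.00213). The log2 ratio of ERF11 exceeded that of ERF4 on each array, and the lowest ERF11 value, 2.17, lay above the highest ERF4 value, 1.17.

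Subgroup IXa was represented by ERF2 and ERF13, both activators of GCC box promoters. ERF13, which alters abscisic acid and sugar sensitivity when overexpressed, had log2 ratios of 3.04, 2.48, 2.67 and 2.79 on arrays a to d, the largest fitted rise of the 10 members as processed here, though not with the Feature Extraction log ratio, where ERF13 stood at 3.16 and ERF105 at 3.41. Its Ler signals were tightly grouped, at 7.77 to 8.05 on the normalised log2 scale, and its ron3 signals ran from 10.25 to 11.02, with no overlap. The rise was 6.70-fold (5.69 to 7.89; limma, adjusted p = 0.000189), and 99.2% of the genes tested had a lower ratio. ERF2 stood at 1.81, 2.20, 2.18 and 2.34 on the 4 arrays. Its ron3 signals were nearly the same on every array, at 11.97 to 12.07, so the spread in its ratio came with its Ler signals of 9.63 to 10.23. ERF2 rose 4.39-fold (3.81 to 5.04; limma, adjusted p = 0.000205).

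Subgroup IXb, which holds ERF5, ERF6, ERF104 and ERF105, covered almost the whole range seen among the members, from 0.20 to 2.71 in fitted log2 ratio. ERF105, a factor induced by cold and by chitin, had log2 ratios of 1.77, 2.79, 2.98 and 3.28 on arrays a to d. Array a was clearly the lowest, but its ron3 signal of 9.19 still lay above all Ler signals, the highest of which was 7.62. The rise was 6.53-fold (4.34 to 9.82; limma, adjusted p = 0.000792). ERF104, which is released by MPK6 on flagellin perception and turns on ethylene responsive defence genes, stood at 1.45, 1.41, 1.67 and 2.39. Array d was the highest and the other arrays lay close together, with no overlap between its ron3 signals (10.43 to 11.31) and its Ler signals (8.92 to 9.44). ERF104 rose 3.32-fold (2.42 to 4.56; limma, adjusted p = 0.00127).

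ERF5 and ERF6 are close relatives that restrain leaf growth together under osmotic stress. ERF5 had log2 ratios of 0.45, 1.32, 1.09 and 1.17 on arrays a to d, with array a lowest, as for ERF105. Its signals did not overlap between genotypes, at 9.29 to 9.93 in ron3 and 8.44 to 8.84 in Ler. ERF5 rose 2.02-fold (1.63 to 2.49; limma, adjusted p = 0.00189). ERF6 stood at 0.09, 0.18, 0.28 and 0.27, the smallest ratios of all members. It was barely measured: its probe was well above background on 2 of 4 arrays in ron3 and on 1 of 4 in Ler, and its signals overlapped between genotypes (6.56 to 6.95 in ron3, 6.29 to 6.69 in Ler). The fitted rise of 1.15-fold (1.05 to 1.26; limma, adjusted p = 0.0206) therefore rests on signals near background, and 67.1% of the genes tested had a lower ratio. Without array c its adjusted p was 0.115 and without array d it was 0.0556 (limma), and the deposited log ratio of the scanner software Feature Extraction corresponded to a log2 ratio of 1.22.

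**Figure D2:**
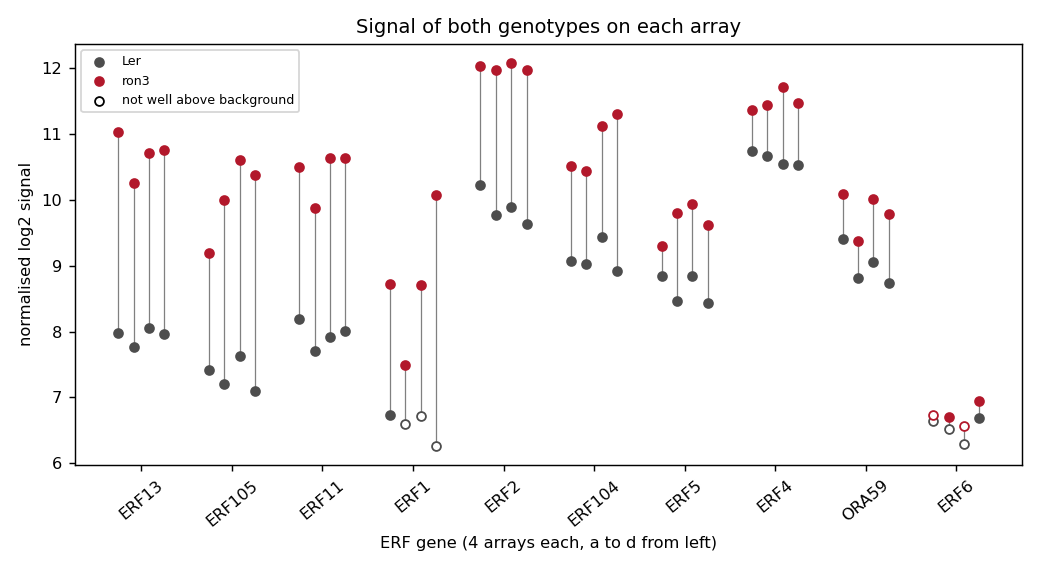
Normalised log2 signal (y axis) of each ERF gene (x axis) in Ler (grey) and ron3 (red), with a line joining both genotypes of one array, arrays a to d from left, and open circles for signals not well above background. ERF1 had a signal well above background in Ler on array a only, and the lines of ERF6 are short and near the bottom of the scale.

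Subgroup IXc was represented by ERF1 and ORA59, which integrate ethylene and jasmonate signals and activate the defensin gene PDF1.2. ERF1, a direct target of the ethylene transcription factor EIN3, had log2 ratios of 1.99, 0.89, 1.99 and 3.81 on arrays a to d. Arrays a and c were nearly identical, b the lowest and d the highest, and b and d share the dye orientation. In ron3 the ERF1 probe was well above background on all 4 arrays, with signals of 7.49 to 10.07, and in Ler on 1 of 4, with signals of 6.27 to 6.73. The fitted rise was 4.50-fold with a wide interval of 1.82 to 11.1 (limma, adjusted p = 0.0157), a fold taken mostly against Ler signals not well above background and so uncertain in size. Its size depended on single arrays, with a log2 ratio of 2.90 without array b and 1.44 without array d. It passed the threshold in both of those fits and missed it without array a or c (limma). Without a or c the residual spread came from arrays b and d alone, and without b or d from a and c alone. The Feature Extraction log ratio gave 3.58 on the log2 scale.

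ORA59 had log2 ratios of 0.69, 0.56, 0.96 and 1.03 on arrays a to d. On each array ron3 was above Ler, but the signals overlapped between arrays, with 9.37 to 10.08 in ron3 and 8.74 to 9.40 in Ler. The rise was 1.75-fold, with a 95% interval of 0.54 to 1.07 on the log2 scale (limma, adjusted p = 0.00233).

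Ordered by fitted log2 ratio, the members ran from ERF13 and ERF105 through ERF11, ERF1, ERF2, ERF104, ERF5, ERF4 and ORA59 to ERF6. The places of ERF1 and ERF6 depended on the processing: with the Feature Extraction log ratio ERF1 (3.58) came first, before ERF105 (3.41) and ERF13 (3.16), and ERF6 (1.22) lay above ERF5 (1.09), ERF4 (0.91) and ORA59 (0.83). Neighbours in this order overlapped over the 4 arrays except at a pair of places. The lowest ERF104 value, 1.41, lay above the highest ERF5 value, 1.32, and the lowest ORA59 value, 0.56, lay above the highest ERF6 value, 0.28. Of the 10 members, 9 had a higher ratio than at least 90% of the genes tested.

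**Figure D3:**
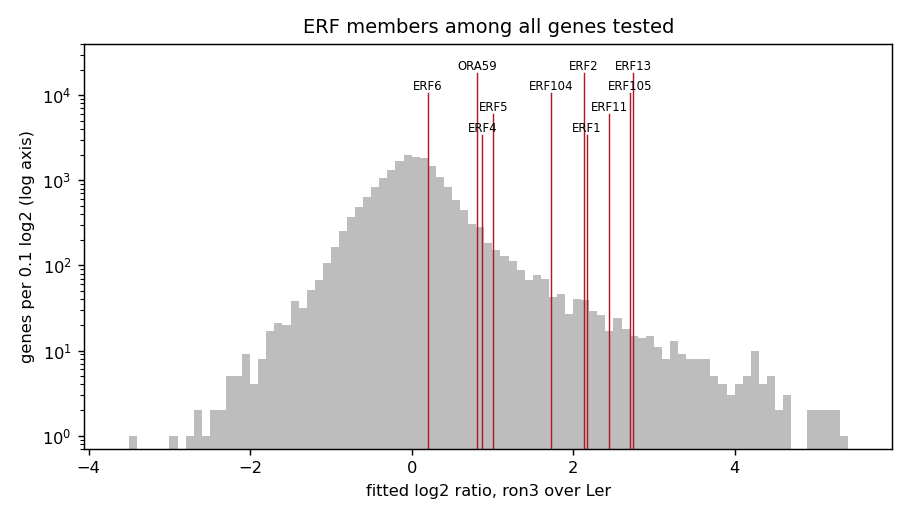
Number of genes (y axis, log scale) by fitted log2 ratio of ron3 over Ler (x axis, bins of 0.1) for all 19246 genes tested, with a red line at each ERF member. ERF6 lies inside the bulk of the distribution and the other members lie in its upper tail, from 0.81 for ORA59 to 2.74 for ERF13.

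The arrays differed in how far the members rose. Their mean log2 ratio was 1.42, 1.48, 1.77 and 2.06 on arrays a to d. The lowest ratio fell on array a for 5 members and on array b for the other 5, and the highest fell on array c or d for 8 of 10. Among all genes that rose at least 2-fold, 76.6% also had their lowest ratio on array a or b and 73.1% their highest on array c or d. The dye orientations did not order the members: the mean with ron3 in Cy3 was above that with ron3 in Cy5 for 6 of 10. The dye effect had an unadjusted p under 0.05 for 0 of 10 members and an adjusted p below 0.05 for 0 genes (limma), although 2208 of all genes tested had an unadjusted p under 0.05.

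Genes with early induction by touch and wounding rose too. All 8 of 8 measured rose, where 37.0% of all genes tested did, with a median log2 ratio of 2.32. This list was chosen with earlier results of these data known, so its direction is not independent evidence. TCH3, a calmodulin-like protein, rose by 3.64 ± 0.16 (SD, n = 4), CML37, another calmodulin-like protein, by 4.58 ± 0.83, and the zinc finger proteins ZAT12 and SZF2 by 3.58 ± 0.72 and 2.44 ± 0.44 (limma, adjusted p = 0.000137 to 0.000671). Their mean over the list was 2.34, 1.88, 2.94 and 2.82 on arrays a to d, lower on a and b than on c and d, like that of the members. This order is not particular to these lists, since 76.6% of all genes that rose at least 2-fold had their lowest ratio on array a or b. The summed signal of the list was 8003 to 9590 in Ler and 42571 to 80188 in ron3, on the normalised linear scale. All 8 were well above background on every ron3 array and 7 on every Ler array, and their part in the ERF result was not tested.

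Markers of other tissues also differed between the genotypes. Of 12 root markers 10 were measured, and 6 of these had entered the fit through both genotypes, of which 3 rose and 0 fell, where 37.0% of all genes tested rose. The other 4, RHD2, EXPA7, EXPA18 and MYB36, entered only through ron3 and also passed. The first 3 of them had no Ler signal well above background. With Ler set at no less than the dimmest signals well above background, their folds were 1.4, 1.29 and 1.37. For EXPA7 this setting left the mean Ler signal unchanged, so these folds are uncertain in size and are not lower bounds (EXPA7, EXPA18, LHCB1.1 and LHCB2.1 are named after their values were seen). PLT1 and PLT2, which define the root stem cell niche, were not well above background on any array. The summed signal of all 12 root markers was 1308 to 1372 in Ler and 1493 to 2250 in ron3. Only 2 of them were well above background on every Ler array and 5 on none, so these sums include signal near background. The log2 ratios of the 10 measured averaged 0.61, 0.64 and 0.63 on arrays a to c but 0.15 on array d. The iron transporter IRT1 rose by 1.43 ± 0.51 and CASP1, of the endodermis, by 0.72 ± 0.31 (SD, n = 4; limma, adjusted p = 0.00258 and 0.00291). WOX5, CASP2 and AHA7, named after their values were seen, did not pass. They stood at −0.04 ± 0.13, 0.04 ± 0.13 and 0.34 ± 0.32. On array d, where the root mean was lowest, the mean of the ERF members was highest, which rests on 1 array and was not tested. All 8 photosynthetic leaf markers fell, where 32.8% of all genes tested did, with a summed signal of 501972 to 614554 in Ler and 343236 to 432186 in ron3. For LHCB1.1 and LHCB2.1 the sign was not the same on all arrays: LHCB1.1 was above 0 on arrays a and c and below 0 on b and d, and LHCB2.1 was above 0 on array b. Their fitted dye effects, 0.37 and −0.30, were larger in size than their fitted log2 ratios, −0.18 and −0.23. Of the 8 apex markers measured, 3 rose and 3 fell, with STM, the meristem homeobox gene, at 0.40 ± 0.12 and the growth regulator ANT at −0.83 ± 0.12 (SD, n = 4; limma, adjusted p = 0.00326 and 0.000404). The part of tissue make-up in the ERF result was not tested.

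Other factors of the same groups moved both ways and mostly by less. The counts in this and the next lists are to be read against the 37.0% of all genes tested that rose and the 32.8% that fell. Of 10 other group VIII factors 7 were measured, 4 rose and 3 fell, with a median log2 ratio of 0.14. ERF8, ERF3, ERF10 and LEP stood at 0.60 ± 0.17, 0.39 ± 0.07, 0.31 ± 0.04 and 0.14 ± 0.05, and ERF9, ERF7 and DRN at −0.53 ± 0.10, −0.42 ± 0.08 and −0.30 ± 0.11 (SD, n = 4; limma, adjusted p = 0.00116 to 0.0345). ERF8, ERF3, ERF7 and ERF9 carry the EAR motif, as ERF4 and ERF11 do, so that repressors of this type were found among both the rises and the falls. In Ler, only 1 array had ERF10 well above background. The adjusted p of LEP was between 0.0546 and 0.2 in 10 of the 15 alternatives that tested it, and that of DRN was 0.0566 without array c (limma).

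Of 9 other group IX factors 5 were measured, 3 rose and 1 fell, with a median of 0.26. ERF1A, the third member of subgroup IXa, rose by 2.04 ± 0.17 (SD, n = 4; limma, adjusted p = 0.000214), a value between those of ERF2 and ERF104. ERF15, of subgroup IXc, rose by 0.55 ± 0.20 and ERF96 by 0.26 ± 0.38, the latter with 1 array below 0, Ler above background on 1 of 4 arrays and an adjusted p of 0.144 without the dye effect and 0.0606 without array c (limma, adjusted p = 0.000772 and 0.00839 as fitted). ERF107, also called DEWAX, a repressor of wax synthesis genes in subgroup IXb, fell by 0.75 ± 0.22 (limma, adjusted p = 0.00081).

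Several members lie beside relatives on the chromosome. ERF104 and ERF107 are adjacent in the reference gene order of assembly TAIR10.1, and on every array ERF104 was higher in ron3 (at least 1.41) while ERF107 was lower (−1.02, −0.70, −0.79 and −0.50 on arrays a to d). ERF6 and ERF1A are also adjacent, with fitted log2 ratios of 0.20 and 2.04. ERF2 and ERF5, separated by 1 untested gene, both rose, at 2.13 and 1.01. Among the 25 tested non-member genes within 2 places of a member, 8 rose and 7 fell, with a median log2 ratio of 0.08. These shares, 32% and 28%, were near those over all genes tested, 37.0% and 32.8%.

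Genes of ethylene synthesis went both ways. Of 11 written down 8 were measured, 4 rose and 2 fell, with a median log2 ratio of 0.69, also with ACS2 at its bound. The synthases make the ethylene precursor ACC and the oxidases convert it to ethylene. ACS6, a stress-induced synthase stabilised by MPK3 and MPK6, rose by 1.80 ± 0.21 and the oxidase ACO4 by 0.99 ± 0.12, while ACS4, with log2 ratios of −1.32, −0.87, −1.24 and −0.99 on arrays a to d, fell (SD, n = 4; limma, adjusted p = 0.000231 to 0.000334). For ACS2 no Ler signal was well above background. Its mean ron3 signal was 2.5-fold above a Ler bound, which sets the Ler signal at no less than the dimmest signals well above background. This fold takes no account of the spread between arrays. The fitted fold had a 95% interval of 1.89 to 3.75 (limma, adjusted p = 0.00286), and the log2 ratio on array b was 0.81.

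Of 12 receptors and signalling components of ethylene, all measured, 4 rose and 3 fell, with a median of 0.09. These shares, 33.3% and 25%, were near the 37.0% and 32.8% over all genes tested and are no result about this list. The receptors ERS1 and ETR1 rose by 0.57 ± 0.16 and 0.36 ± 0.06, and the receptor regulator RTE1 and the transcription factor EIL1 fell by 0.36 ± 0.10 and 0.36 ± 0.12 (SD, n = 4; limma, adjusted p = 0.00148 to 0.0044). Among components named after their values were seen, EIN3, the activator of ERF1, rose by 0.23 ± 0.08, the receptor ETR2 fell by 0.61 ± 0.24, and EBF2, an F-box protein whose gene is induced by ethylene, stood at −0.06 ± 0.15 and did not pass.

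Of 5 kinases upstream of ERF6 and ERF104, 4 rose and 0 fell, with a median of 1.02. MPK3 rose by 1.02 ± 0.20, and the kinases that activate it or MPK6 rose as well, MKK9 by 1.58 ± 0.35, MKK4 by 1.08 ± 0.18 and MKK5 by 0.57 ± 0.11 (SD, n = 4; limma, adjusted p = 0.000348 to 0.000907). MPK6, named after its values were seen, stood at 0.03 ± 0.03 and did not pass.

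Downstream genes with GCC boxes differed among themselves. Of 7 written down 6 were measured, 2 rose and 0 fell, with a median of 0.16. The share that rose, 33.3%, was near the 37.0% over all genes tested, and this count is no result about the list. The basic chitinase CHIB, a target of ERF1, rose by 2.01 ± 0.77 and PR4, a hevein-like protein, by 1.59 ± 0.39 (SD, n = 4; limma, adjusted p = 0.00347 and 0.00133). The plant defensins, named after their values were seen, did not pass. For arrays a to d, PDF1.2A gave log2 ratios of 0.01, 0.12, 0.99 and −0.25, and PDF1.2C gave −1.14, −0.0029, 0.73 and −0.13. Both signs therefore occurred for each, although ERF1, ERF2 and ORA59, which can activate PDF1.2, rose on every array. The defensin genes are near-identical in sequence, and their separate values are uncertain. PDF1.2A was well above background on 2 of 4 arrays in each genotype, while PDF1.2C was so on all 4.

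The transcription factors known to act with ERF5, ERF6 and ERF11 in leaf growth under osmotic stress were examined with GA2OX6, a gibberellin catabolism gene that ERF6 activates. Of 16 written down 15 were measured, 12 rose and 1 fell, with a median of 0.89. STZ, a zinc finger repressor and target of ERF6, rose by 3.71 ± 0.47 and WRKY8 by 0.82 ± 0.31, while WRKY33, a defence regulator also downstream of ERF6, rose 6.07-fold (SD, n = 4; limma, adjusted p = 0.000327 to 0.000497). ERF1A, ERF8 and ERF9, already described, belong to this list too. GA2OX6, named after its values were seen, had log2 ratios of −0.26, 0.16, 0.07 and −0.27 on arrays a to d and did not pass, with a 95% interval whose upper end was 0.19.

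**Figure D4:**
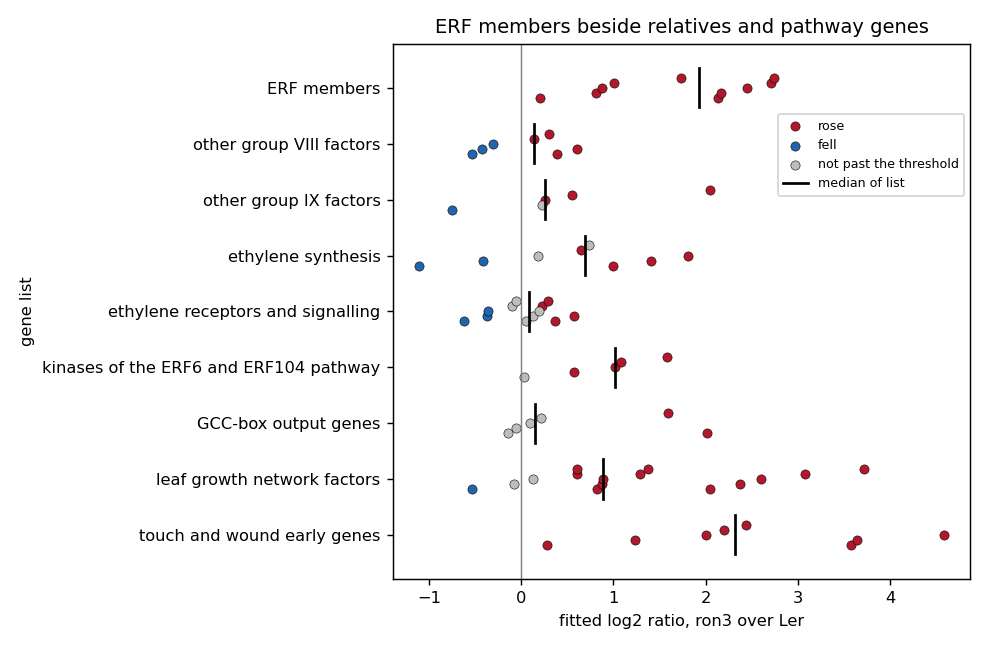
Fitted log2 ratio of ron3 over Ler (x axis) for the measured genes of each list (y axis), in red where the gene rose, in blue where it fell and in grey where it did not pass the threshold, with a black bar at the list median. The ERF members all lie above 0, while relatives in groups VIII and IX and the ethylene pathway genes lie on both sides of it; ACS2 is drawn at its fitted value although it was not well above background in Ler.

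The genes most like 3 chosen members were found by the root mean square difference of the log2 ratio over the 4 arrays, a description without a test. For ERF4 these were MAPKKK16, AT1G24130 and AT4G11350, at 0.03, 0.06 and 0.08, and 162 genes lay within 0.2. For ERF104 they were AT4G39830, AT5MAT and the wall-associated kinase WAK2, at 0.10, 0.13 and 0.15, with 11 genes within 0.2. ERF1 had 0 genes within 0.2, and its nearest were ARI12, AT5G60800 and UGT73C6, at 0.37, 0.42 and 0.42, which shared with it a low value on array b and a high value on array d.

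**Figure D5:**
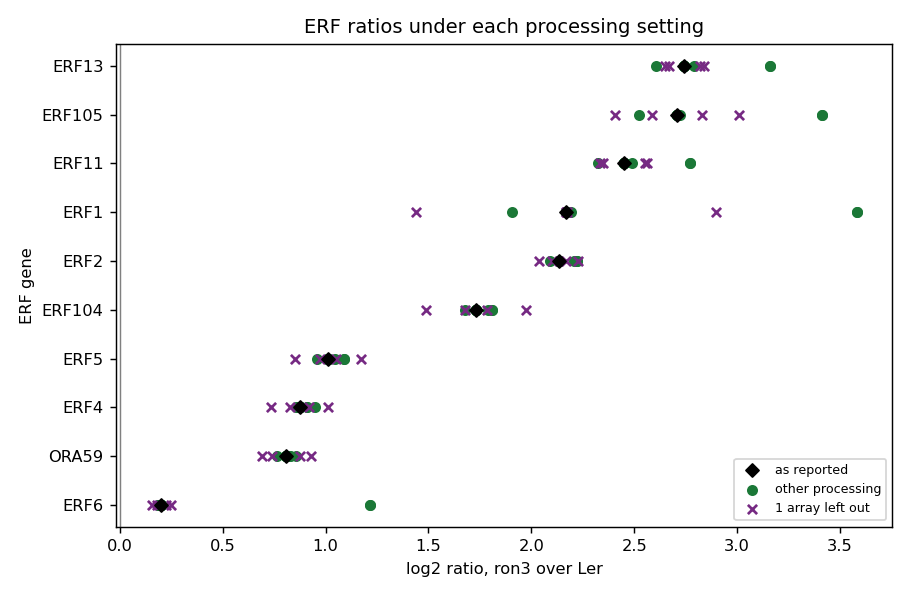
Log2 ratio of ron3 over Ler (x axis) for each ERF gene (y axis) as reported (black diamonds), under other processing of the signals or other fits (green circles) and with 1 array left out (purple crosses). All values lie above 0, and the widest shifts are those of ERF1, from 1.44 to 3.58, and ERF6, from 0.16 to 1.22.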

How the data were processed

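RNA was amplified and labelled with Cy3 or Cy5 and hybridised to 2-colour arrays, per the labels' protocols, and the scans were read with Agilent Feature Extraction, version 10.1.1.1, per the submitters' processing notes. The spot and background values used are medians of pixel intensity, as deposited, and the deposited log ratio is the log10 of Cy5 over Cy3. The authors' value table, which the authors deposited as log2 ratios of ron3 over Ler, matched the processed signals to within 5e-06 and was not centred (medians of −0.01, −0.12, 0.01 and −0.17 on arrays a to d).

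Signals were corrected by normexp (offset 50) and loess within arrays (limma 3.58.1, R 4.3.3), without spots flagged as outliers. Genes entered when well above background in one genotype on at least 2 arrays and unflagged on at least 3, with the brightest probe per locus. A linear model with a dye effect per gene was fitted with limma over all 4 arrays (2 residual and 2.45 prior degrees of freedom), two-sided, with Benjamini-Hochberg adjustment over all genes and a threshold of 0.05. Signals set across arrays were Aquantile-normalised. The number of arrays limits the precision. The fit was tested on data simulated with independent arrays, which cannot show how it behaves where arrays share an RNA extract.

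The members and lists were chosen with earlier results of these data known. Named were all members, RON3, the called group VIII and IX factors, up to 4 members per list by p, and the 3 nearest genes of ERF1, ERF104 and ERF4. Gene names and neighbours came from the reference table of TAIR10.1, which held all 120 listed entries. Probe, promoter and protein sequences were not used here.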

Additional observations from a re-analysis of the deposited data

Results flagged for a closer look

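In 75 sets of 4 array values examined, 6 had 1 array far from the others, where about 1 in 20 is flagged when nothing stands apart. None of these was a ratio or signal of an ERF member. Among genes named beside them, ERF9 stood at −0.38 on array a against −0.57 to −0.60 on the others, and ERS1 at 0.81 on array b against 0.47 to 0.52. CHIB was at 0.87 on array d against 2.25 to 2.52, and TCH3 at 3.87 on array c against 3.54 to 3.57. Of the root markers, IRT1 was at 0.67 on array d against 1.61 to 1.73 and MYB36 at 0.64 on array b against 0.39 to 0.43.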

How the results depend on the processing

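All 10 members rose in the 12 other processings and fits, except that 8 of 8 did where both channels had to be well above background on all arrays, which removed ERF1 and ERF6 from the test. With 1 array left out, 8 to 10 members passed, and 10030 to 13236 genes changed against 13435. ERF1 missed the threshold without array a or c and ERF6 without array c or d. In each fit with 1 array left out, the residual spread came only from the 2 arrays that still shared a dye orientation. No member reversed. The other 8 members kept their call in all 16 alternatives, but these are not 16 separate checks. Aquantile normalisation left the ratios as in the main fit, and averaging probes could not move a member with 1 probe. The authors' values repeat the Feature Extraction log ratios almost exactly. From the Feature Extraction log ratio or the authors' values, ERF1 moved from 2.17 to 3.58, ERF6 from 0.20 to 1.22 and ERF105 from 2.71 to 3.41. With these values the folds of 9 other named genes also moved by over 1.5 times without a change of sign. CHIB moved to 3.21, IRT1 to 2.61, WRKY8 to 1.52, CML37 to 5.53, ERF10 to 0.93 and MYB36 to 1.59. ACS4 moved to −1.93, and ACS2 and RHD2, with no Ler signal well above background, to 3.64 and 2.14. The cause was not tested. With these values 44.8% of changed genes were rises against 53.0%. Averaging arrays as dye-swap pairs, a with b and c with d or a with d and b with c, changed no member's call (adjusted p at most 0.0362, limma). RON3 was lower under every alternative. Signal over background limits what can be said of ERF6 and of ERF1 in Ler.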
